A study of Prunus yedoensis with 90 samples.

Results

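The winter buds described here are the apical bud libraries of December 2018, January 2019 and February 2019, 18 of the 90 libraries of the series and 18 of its 66 bud libraries. They were chosen by tissue and collection month, with no cut on a measured level, although earlier results of these data were known. The series followed transcript levels in buds and leaves of the Yoshino cherry, Cerasus × yedoensis 'Somei-yoshino', at 3 places in Japan from north to south, Hokkaido (Sapporo), Tsukuba and Fukuoka. The cultivar is propagated by grafting, so all trees are copies of one clone, and the labels name no experimental treatment. The Hokkaido group holds 2 trees, collected on 3 December, 8 January and 7 February. The Tsukuba group holds 2 trees, collected on 7 December, 10 January and 14 February. The Fukuoka group holds 2 trees, collected on 19 December, 17 January and 14 February. Dates of a month therefore lay up to 16 days apart in December, 9 days in January and 7 days in February. Each tree entered the comparison of sites once, as its mean over the 3 dates. With 2 trees per site, the place, its weather, the ground the trees stand in and the collection dates cannot be told apart.

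Buds of temperate cherries form in summer and stop growing in autumn. In the first stage, endodormancy, growth stays blocked within the bud even in warmth, and a long stretch of chilling lifts the block. In the second, ecodormancy, the bud could grow but is held back by cold until spring, and the genes known for changing over this course in Prunus include dormancy-associated MADS-box genes, cold-response genes and genes of abscisic acid and gibberellin metabolism. The deposited IDs carry no gene names, so none of these could be looked up, the tissue could not be checked against bud markers, and genes are given by ID without a role.

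Levels are in TPM, a relative transcript abundance scaled for gene length and library total. Differences are of log2(TPM + 1). A gene was called when limma's adjusted p was under 0.05 and the difference was at least 1, a 2-fold change that is understated at low TPM. Fewer genes had a TPM over 1 in Hokkaido, 35471 to 37425 per library, than the 36503 to 38394 in Tsukuba and the 36822 to 38708 in Fukuoka, although the ranges overlap. The 100 most abundant genes held 15.9% to 23.0% of the TPM in Hokkaido libraries, 14.7% to 21.6% in Tsukuba libraries and 13.6% to 19.4% in Fukuoka libraries. Sequencing depth is unknown, since TPM keeps none. In such bulk tissue, fewer cells of a type and less RNA per cell cannot be told apart.

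Site accounted for nearly as much of the variance among winter buds as month did. Over the 37986 genes with a mean of at least 1 TPM, month held 36.3% of the sum of squares, site 32.0%, site by month 17.2% and tree within site 6.12%, with 8.40% left. Across genes, the 2 trees of a site in a month correlated with r of 0.972 to 0.981 (median 0.978, 9 pairs). Trees of different sites in the same month had a median r of 0.938 (36 pairs), and libraries of the same site in different months 0.929 (36 pairs), all as descriptions over genes that share each library. On the first principal component, Hokkaido lay to the right of both other sites in every month. The Hokkaido trees were at -0.14 and 31.4 in December, 82.5 and 92.2 in January and 48.3 and 69.5 in February. The Tsukuba trees were at -92.0 and -84.9, then 14.9 and 20.0, then -5.07 and -14.6, and the Fukuoka trees at -60.4 and -72.1, then 9.42 and 10.7, then -24.1 and -25.6. At each site the 2 December libraries were the furthest left and the 2 January libraries the furthest right. Along the second component February libraries lay highest at each site.

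**Figure D1:**
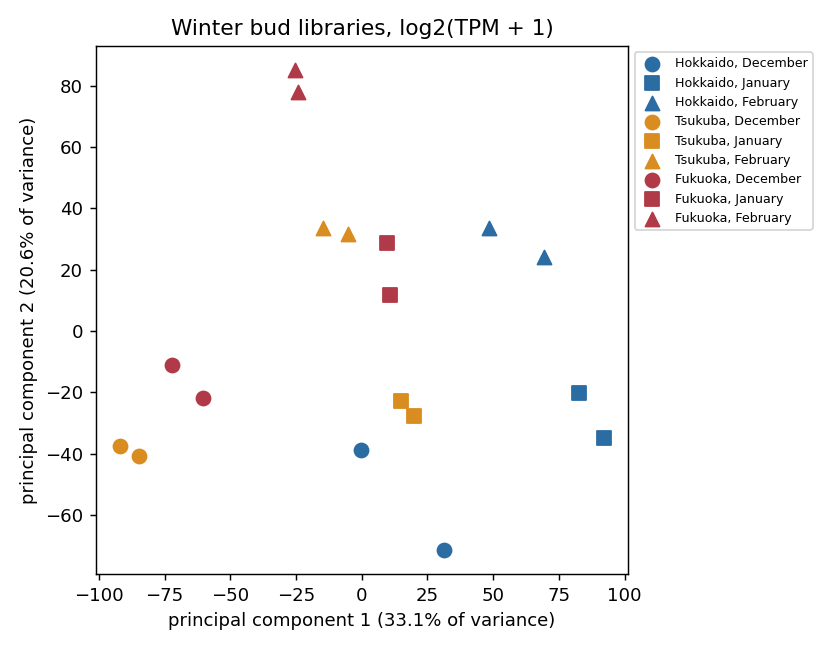
Principal components 1 (horizontal, 33.1% of the variance) and 2 (vertical, 20.6%) of log2(TPM + 1) in the 18 winter bud libraries, with colour for site and marker shape for month. Each pair of equal markers is the 2 trees of a site; Hokkaido libraries lie right of the Tsukuba and Fukuoka libraries of the same month.

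Hokkaido buds differed from Fukuoka buds, the northernmost from the southernmost, in 2221 of 37986 genes, or 5.85% of those tested. Of these, 829 (2.18% of those tested) were higher and 1392 (3.66%) lower in Hokkaido, with a median size of 1.26 on the log2 scale over the called genes. Scaling moved the split, with 37.3% of the calls higher as deposited, 48.3% after median scaling and 50.0% after quantile normalization, so a tilt toward lower levels in Hokkaido is not stable. The difference reached 4-fold (2 on the log2 scale) in 98 genes higher and 80 genes lower in Hokkaido. In 418 of the 829 higher and 692 of the 1392 lower genes, all 6 Hokkaido libraries lay beyond all 6 Fukuoka libraries. Over all genes tested, 1798 lay wholly above and 2778 wholly below. By the first 2 digits of their library numbers the winter libraries fall into 2 series, one of which holds the second trees of Hokkaido and Tsukuba only. What the series stands for was not given in the sources used here. With that series as a covariate, 1913 genes were called.

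The gene furthest above its Fukuoka level was CYE_r3.1SPA0_g148600.1. In December, January and February in turn, its 2 Hokkaido trees had 29.6 and 34.0, 90.0 and 85.2, and 89.4 and 74.0 TPM. The Tsukuba trees had 2.38 and 2.96, 19.5 and 22.1, and 15.2 and 3.28 TPM, and the Fukuoka trees 4.28 and 1.69, 1.43 and 2.91, and 0.464 and 0.417 TPM. The lowest Hokkaido library was thus above the highest library of both other sites. The site means were 67.0 ± 3.71 TPM in Hokkaido, 10.9 ± 2.06 TPM in Tsukuba and, in Fukuoka, 1.86 ± 0.274 TPM (SD, n = 2 trees each), and Hokkaido minus Fukuoka was 4.60 (SE 0.17, limma adjusted p = 0.00054). In summer (June, July and the first August collection) the same trees ranged from 1.26 to 34.8 TPM in Hokkaido and from 1.17 to 15.6 TPM in Fukuoka, and the difference was 0.60 (SE 0.36, adjusted p = 0.262).

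CYE_r3.1SPE2_g016970.1 was next, and its 3 sites followed different courses through the winter. Hokkaido trees had 103 and 183 TPM in December, 178 and 249 TPM in January and 198 and 168 TPM in February. Tsukuba trees had 10.2 and 6.94, then 235 and 245, then 90.0 and 69.9 TPM. Fukuoka trees had 4.74 and 3.21, then 22.6 and 21.8, then 6.64 and 3.55 TPM. Tsukuba was thus close to Fukuoka in December and close to Hokkaido in January. Averaged over the winter, Hokkaido minus Fukuoka was 4.32 (SE 0.19, adjusted p = 0.000551), Hokkaido minus Tsukuba 1.63 (SE 0.19, adjusted p = 0.0037) and Tsukuba minus Fukuoka 2.70 (SE 0.19, adjusted p = 0.00246). In summer the sign was the other way, with 3.82 ± 0.666 TPM in Hokkaido and 9.87 ± 1.22 TPM in Fukuoka (SD, n = 2 trees each; difference -1.12, SE 0.14, adjusted p = 0.00567).

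Among the lower genes, CYE_r3.1SPA3_g017710.1 had 7.12 and 9.55, 3.81 and 3.59, and 0.766 and 1.56 TPM in Hokkaido in the 3 months. In Tsukuba it had 43.4 and 50.1, 17.5 and 13.7, and 34.2 and 46.0 TPM, and in Fukuoka 67.2 and 45.3, 55.3 and 55.5, and 139 and 98.5 TPM. Levels in Hokkaido went down through the winter while the Fukuoka level was highest in February, and no library of one site overlapped those of the other. Hokkaido minus Fukuoka was -4.00 (SE 0.15, adjusted p = 0.00054). In summer the difference was -0.04 (SE 0.46, adjusted p = 0.958), with a range of 12.5 to 415 TPM in Hokkaido and 44.5 to 181 TPM in Fukuoka.

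CYE_r3.1SPA6_g013950.1 was close to 0 in Hokkaido through the winter. Its Hokkaido trees had 1.16 and 0 TPM in December, 1.38 and 0 TPM in January and 1.42 and 0.6 TPM in February. Tsukuba trees had 58.7 and 52.6, 8.78 and 6.29, and 12.0 and 14.6 TPM, and Fukuoka trees 31.7 and 24.1, 9.89 and 10.6, and 23.9 and 59.9 TPM. In June of the preceding summer the Hokkaido trees had 1166 and 1301 TPM, so the gene is one that Hokkaido buds express in another season. The summer mean was 803 TPM in Hokkaido, 399 TPM in Tsukuba and 397 TPM in Fukuoka, so all 3 sites were lower in winter. Over the winter, Hokkaido minus Fukuoka was -3.82 (SE 0.31, adjusted p = 0.00125). Tsukuba minus Fukuoka was -0.29 (SE 0.31, adjusted p = 0.548).

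**Figure D2:**
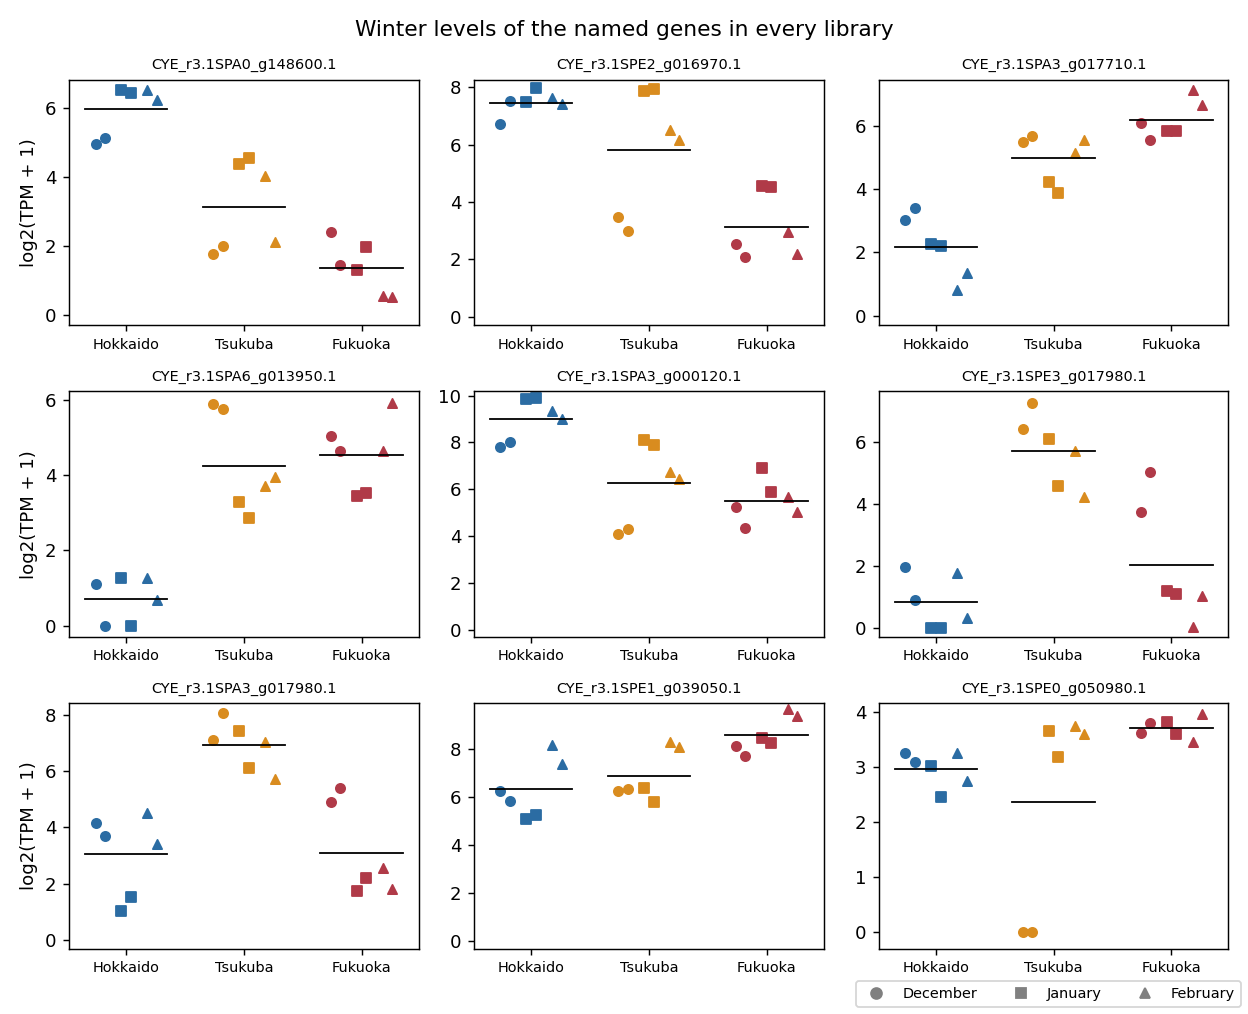
Level of 9 genes, log2(TPM + 1) on the vertical axis, in each winter bud library of Hokkaido, Tsukuba and Fukuoka, with marker shape for month and a line at the site mean over 6 libraries. The pairs of equal markers are the 2 trees; in the first 3 panels the Hokkaido libraries do not overlap those of Fukuoka, and in the last panel both Tsukuba trees are at 0 in December.

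Hokkaido differed from Tsukuba in 1660 genes, 4.37% of those tested, of which 437 (1.15%) were higher and 1223 (3.22%) lower in Hokkaido. Here the tilt among the called genes held under scaling, with 26.3% of the calls higher as deposited, 28.7% after median scaling and 33.5% after quantile normalization. By adjusted p alone, with no minimum size, a rule tried after seeing the data, there was little tilt, with 6748 genes higher and 6919 lower in Hokkaido. A 4-fold difference was reached by 28 genes higher and 108 genes lower in Hokkaido. All 6 Hokkaido libraries lay above all 6 Tsukuba libraries in 153 of the 437 higher genes, and below them in 351 of the 1223 lower genes. Over all genes tested the balance was the other way, with 3.67% wholly above and 2.95% wholly below. The comparison shares its Hokkaido trees with the one above, so the counts are not independent of each other.

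CYE_r3.1SPA0_g148600.1, described above, also led this comparison, at 2.83 (SE 0.17, adjusted p = 0.00119). The second was CYE_r3.1SPA3_g000120.1, one of the more abundant of the named genes. Its Hokkaido trees had 224 and 260 TPM in December, 930 and 943 TPM in January and 639 and 514 TPM in February. Its Tsukuba trees had 16.1 and 18.6, then 270 and 233, then 105 and 84.4 TPM, and its Fukuoka trees 36.4 and 19.2, then 118 and 58.1, then 50.0 and 31.6 TPM. All 3 sites were highest in January, at different heights. Hokkaido minus Tsukuba was 2.74 (SE 0.26, adjusted p = 0.00254), and Tsukuba minus Fukuoka 0.74 (SE 0.26, adjusted p = 0.105).

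The 2 genes furthest below their Tsukuba level, among called genes with a winter mean of at least 5 TPM and the same sign in all 4 pairs of trees, were CYE_r3.1SPE3_g017980.1 and CYE_r3.1SPA3_g017980.1, and both were higher in Tsukuba than at either other site. CYE_r3.1SPE3_g017980.1 had 0 to 2.86 TPM in Hokkaido (median 0.544), 17.4 to 152 TPM in Tsukuba (median 58.3) and 0.012 to 31.6 TPM in Fukuoka (median 1.21; 6 libraries each). Hokkaido minus Tsukuba was -4.88 (SE 0.39, adjusted p = 0.00193). CYE_r3.1SPA3_g017980.1 had 1.07 to 22.0 TPM in Hokkaido (median 10.9), 52.2 to 265 TPM in Tsukuba (median 133) and 2.38 to 40.8 TPM in Fukuoka (median 4.20). Hokkaido minus Tsukuba was -3.85 (SE 0.20, adjusted p = 0.00105), while Hokkaido minus Fukuoka was -0.04 (SE 0.20, adjusted p = 0.89). For this gene every Tsukuba library lay above every library of Hokkaido and Fukuoka. The way reads of similar copies were split was not given in the sources used here. Levels of IDs that resemble each other in sequence are uncertain for that reason.

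Tsukuba and Fukuoka had the fewest calls of the 3 pairs, 625 genes, 1.65% of those tested. Of the genes tested, 1.49% were called higher and 0.158%, or 60 genes, lower in Tsukuba, and the share of the calls that were higher was 90.4% as deposited, 95.7% after median scaling and 93.7% after quantile normalization. That share holds only for differences of at least 1: by adjusted p alone 5426 genes differed, 2047 higher and 3379 lower in Tsukuba as deposited and 2538 higher and 2182 lower after median scaling. Over all genes tested, every Tsukuba library lay above every Fukuoka library in 0.998% and below in 2.79%. All 77 called genes with a 4-fold difference were higher in Tsukuba. Without the first Fukuoka tree 364 genes were called.

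CYE_r3.1SPA3_g017980.1 and CYE_r3.1SPE3_g017980.1 led the higher genes here as well, by 3.81 (SE 0.20, adjusted p = 0.00146) and by 3.69 (SE 0.39, adjusted p = 0.00684). In December the first of them had 135 and 265 TPM in Tsukuba and 29.0 and 40.8 TPM in Fukuoka, and in January 171 and 68.0 TPM in Tsukuba and 2.38 and 3.56 TPM in Fukuoka. The difference was 2.43 (SE 0.55, adjusted p = 0.0107) within December and 4.79 (SE 0.55, adjusted p = 0.000431) within January. Its change from December to February did not pass the test (1.79, SE 0.79, adjusted p = 0.245). Of the called genes with a winter mean of at least 5 TPM and the same sign in all 4 pairs of trees, CYE_r3.1SPE1_g039050.1 was the furthest below Fukuoka. Its Hokkaido trees had 74.2 and 56.0, 32.8 and 36.7, and 287 and 163 TPM in the 3 months, its Tsukuba trees 75.3 and 78.9, 82.3 and 53.4, and 312 and 268 TPM, and its Fukuoka trees 278 and 204, 344 and 304, and 806 and 655 TPM. February was the highest month at all 3 sites, and the Fukuoka trees were above the others within each month. Tsukuba minus Fukuoka was -1.74 (SE 0.17, adjusted p = 0.00587), and Hokkaido minus Fukuoka -2.26 (SE 0.17, adjusted p = 0.0011).

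The fourth gene named by the rule, CYE_r3.1SPE0_g050980.1, rests on 1 date. It was listed at 0 in both Tsukuba trees in December and at 11.5 and 8.06 TPM in January and 12.4 and 11.2 TPM in February, against 9.87 to 14.5 TPM in the 6 Fukuoka libraries. Tsukuba minus Fukuoka was -1.34 (SE 0.16, adjusted p = 0.00956) over the 3 months, but -0.16 (adjusted p = 0.604) over January and February. A value of exactly 0 may be a failed estimate in a file without counts.

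Taking the 3 sites in 1 test, 3067 genes (8.07%) differed between any of them. Among these, Tsukuba had the middle mean in 1785 genes (58.2%), and the order Fukuoka, Tsukuba, Hokkaido from high to low was the most frequent, with 1129 genes (36.8%). The order Tsukuba, Fukuoka, Hokkaido came next with 700 genes (22.8%), then Hokkaido, Tsukuba, Fukuoka with 656 (21.4%) and Tsukuba, Hokkaido, Fukuoka with 362 (11.8%). Tsukuba was lowest in 220 genes. Hokkaido was lowest in 1829 genes as deposited, in 1532 after median scaling and in 1366 after quantile normalization. Which site was most often highest turned with the scaling: Hokkaido was highest in 848 genes, Tsukuba in 1062 and Fukuoka in 1157 as deposited, but Hokkaido in 1019, Tsukuba in 1011 and Fukuoka in 810 after quantile normalization. Without the first Hokkaido tree Fukuoka was highest in 1748 genes.

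Under a rule that asked for the same state in every winter month, presence and absence of transcripts set the sites apart in hardly any gene. Genes present at the other site in only some months do not count under it. A single gene, CYE_r3.1SPE0_g080130.1, was listed at 0 in all 6 winter libraries of Hokkaido and at 1 TPM or more in all 6 of another site, at 1.02 to 4.48 TPM in Tsukuba. It was above 0 in 14 of the 22 bud libraries of Hokkaido over the year. With a minimum of 5 TPM at the other site there was no such gene, and none was at 0 in this way in Tsukuba or Fukuoka.

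The number of genes called between sites differed from month to month. The fits within months treated the libraries of a tree as independent, so their counts are not on the same footing as those of the winter mean. Within December, Hokkaido differed from Fukuoka in 2386 genes (6.28%), from Tsukuba in 4725 (12.4%), and Tsukuba from Fukuoka in 1596 (4.2%). Within January the counts were 3404 (8.96%), 2495 (6.57%) and 988 (2.6%), and within February 3441 (9.06%), 2152 (5.67%) and 1015 (2.67%), in the same order of pairs. Hokkaido and Tsukuba, collected on 3 and 7 December, were thus the pair with the most calls in December, and Hokkaido and Fukuoka the pair with the most in January and February. The share of calls higher in Hokkaido than in Fukuoka was 38.3% in December as deposited and 48.4% after quantile normalization, 34.4% and 49.9% in January, and 37.3% and 48.1% in February. The share higher in Tsukuba than in Fukuoka in January was 57.5% as deposited and 72.1% after median scaling, but 27.4% as deposited by adjusted p alone (1739 higher, 4608 lower). The median over all genes was -0.11 for Hokkaido minus Fukuoka and for Tsukuba minus Fukuoka in January, and -0.11 for Tsukuba minus Fukuoka in February. Some counts hang on a tree: the December count for Hokkaido and Fukuoka was 3841 without the first and 1311 without the second Hokkaido tree and 1452 without the second Fukuoka tree, and the February count for Hokkaido and Tsukuba was 1384 without the second Hokkaido tree. For Tsukuba and Fukuoka the January count was 552 without the first Fukuoka tree and nearly as low without the first Tsukuba tree, and the February count 525 without the second Tsukuba and 499 without the second Fukuoka tree.

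Most calls belonged to a single month, 5543 of 7266 for Hokkaido and Tsukuba, 3839 of 6198 for Hokkaido and Fukuoka and 2192 of 2820 for Tsukuba and Fukuoka. Between Hokkaido and Tsukuba 3483 were called in December only, and 103 were higher and 256 lower in Hokkaido in all 3 months. Between Hokkaido and Fukuoka 280 were higher and 386 lower in Hokkaido in all 3, and between Tsukuba and Fukuoka 145 were higher and 2 lower in Tsukuba. Genes called in December and again in February with the same sign made up 48.1% of the December and 33.4% of the February calls between Hokkaido and Fukuoka, and 17.7% and 38.9% between Hokkaido and Tsukuba. Calls of opposite sign in those months numbered 19 for Hokkaido and Fukuoka, 79 for Hokkaido and Tsukuba and 12 for Tsukuba and Fukuoka. That a gene was called in one month and not in another does not show that the months differ, which was tested on the change itself.

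**Figure D3:**
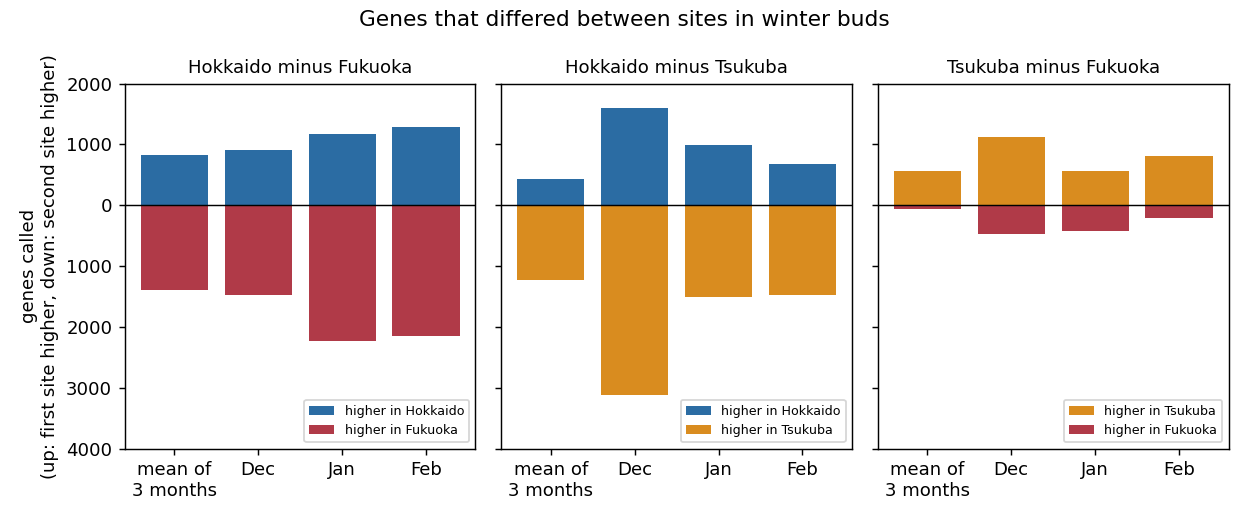
Number of genes called between each pair of sites (vertical axis, genes), for the mean of the 3 months and within December, January and February. Bars above 0 count genes higher at the first site of the pair and bars below 0 genes higher at the second; Hokkaido minus Tsukuba has its tallest bars in December, 4725 genes in all, and Tsukuba minus Fukuoka lies mostly above 0.

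The change from December to February differed between Hokkaido and Tsukuba in 3315 of 38391 genes (8.63%), 1880 (4.9%) with Hokkaido the more positive and 1435 (3.74%) with Tsukuba the more positive. Hokkaido and Fukuoka differed in this change in 66 genes (0.172%) and Tsukuba and Fukuoka in 264 (0.688%). Of the 66, 40.9% were more positive in Hokkaido as deposited and 61.1% of the calls after median scaling. These fits use 1 difference per tree. The step covered 66 days in Hokkaido, 69 days in Tsukuba and 57 days in Fukuoka, and the fits made no allowance for this. Without the second Hokkaido tree or the first Tsukuba tree none was called for Hokkaido and Tsukuba, and without the second Tsukuba tree 1363 were. Without any 1 tree at most 1 gene was called for Hokkaido and Fukuoka and none for Tsukuba and Fukuoka. At an unadjusted p under 0.05 there were 6707 genes for Hokkaido and Fukuoka and 8766 for Tsukuba and Fukuoka. A fit of all 18 libraries with the tree as a random block, chosen after seeing these counts, called 3769 for Hokkaido and Tsukuba, 799 for Hokkaido and Fukuoka and 1417 for Tsukuba and Fukuoka.

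CYE_r3.1SPE4_g018020.1 showed what such a difference looked like. On 3 December the Hokkaido trees had 145 and 188 TPM, on 8 January 139 and 144 TPM and on 7 February 84.0 and 55.0 TPM. The Tsukuba trees had 11.8 and 15.0 TPM on 7 December, 157 and 158 TPM on 10 January and 251 and 202 TPM on 14 February, and the Fukuoka trees 22.0 and 20.4, then 169 and 156, then 148 and 180 TPM. On 8 November the Hokkaido trees were still at 22.2 and 18.6 TPM. The high level was thus reached by 3 December in Hokkaido and between the December and January collections at the other sites, and only Hokkaido was lower in February than in December. The February minus December change was -0.78 and -1.75 in the Hokkaido trees, 4.30 and 3.66 in the Tsukuba trees and 2.70 and 3.09 in the Fukuoka trees. The change differed by -5.24 (SE 0.39, adjusted p = 0.00809) for Hokkaido minus Tsukuba and by -4.16 (SE 0.39, adjusted p = 0.0437) for Hokkaido minus Fukuoka. Averaged over the 3 months its levels were 126 ± 4.50 TPM in Hokkaido, 132 ± 10.5 TPM in Tsukuba and, in Fukuoka, 116 ± 4.14 TPM (SD, n = 2 trees each), so the winter mean hid the difference in course.

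CYE_r3.1SPA4_g021080.1 also moved in opposite directions at Hokkaido and Fukuoka. It had 11.6 and 20.5 TPM in December and 4.94 and 3.46 TPM in February in Hokkaido, against 3.04 and 4.27 TPM and then 20.1 and 34.9 TPM in Fukuoka (difference of changes -4.26, SE 0.40, adjusted p = 0.0437). Named for the other sign were CYE_r3.1SPE2_g035260.1 (3.35, SE 0.23, adjusted p = 0.036) and CYE_r3.1SPA4_g023500.1 (2.45, SE 0.20, adjusted p = 0.0437). CYE_r3.1SPA4_g023500.1 went up in Hokkaido, with 10.5 and 13.3 TPM in December and 21.6 and 31.8 TPM in February, and down in Fukuoka, with 4.69 and 4.28 and then 0.935 and 1.34 TPM. All 4 of these calls for Hokkaido minus Fukuoka ended under most alternatives, as did their count.

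For Hokkaido minus Tsukuba, CYE_r3.1SPA0_g175850.1 and CYE_r3.1SPA0_g175790.1 had the more positive change in Hokkaido, by 5.43 (SE 0.46) and 5.41 (SE 0.46), both at an adjusted p of 0.00968. Their levels agreed within 0.051 on the log2 scale in every winter library, so the 2 IDs may share reads and are read as 1 signal. CYE_r3.1SPA0_g175850.1 had 4.72 and 4.53 TPM in December and 27.1 and 14.6 TPM in February in Hokkaido, against 135 and 108 TPM and then 6.72 and 13.3 TPM in Tsukuba. Within the winter, December was thus the high point in Tsukuba. The Tsukuba trees had 59.7 to 103 TPM of it in summer and 78.6 to 136 TPM in March. CYE_r3.1SPE0_g129510.1 had the most negative value of the named genes, -7.67 (SE 1.59, adjusted p = 0.0355), but its levels were either 0 or between 29.5 and 54.1 TPM in every winter library, 0 and 44.4 TPM in the 2 Tsukuba trees on 7 December.

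For Tsukuba minus Fukuoka, the change was more positive in Tsukuba for CYE_r3.1SPE0_g050980.1 (3.68, SE 0.21) and CYE_r3.1SPA0_g127650.1 (3.12, SE 0.16), both at an adjusted p of 0.0281. Both were listed at 0 in both Tsukuba trees in December, and the second also in the Fukuoka trees in December and February. CYE_r3.1SPE6_g026740.1 was more negative, by -3.37 (SE 0.30, adjusted p = 0.047). It had 5.25 and 7.46, 4.44 and 4.58, and 4.99 and 8.38 TPM in Hokkaido in the 3 months, 220 and 220, 28.6 and 24.1, and 22.4 and 23.3 TPM in Tsukuba, and 43.7 and 25.4, 37.5 and 43.4, and 35.9 and 38.6 TPM in Fukuoka. The Tsukuba trees were far above the other sites on 7 December, and the Hokkaido trees lowest on every date. CYE_r3.1SPA6_g004710.1 had the fourth value, -3.28 (SE 0.24, adjusted p = 0.047), with 66.9 and 39.1 TPM in December and 12.0 and 9.77 TPM in February in Tsukuba, against 11.3 and 18.9 and then 26.7 and 41.8 TPM in Fukuoka. All 4 of these calls ended under most alternatives.

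**Figure D4:**
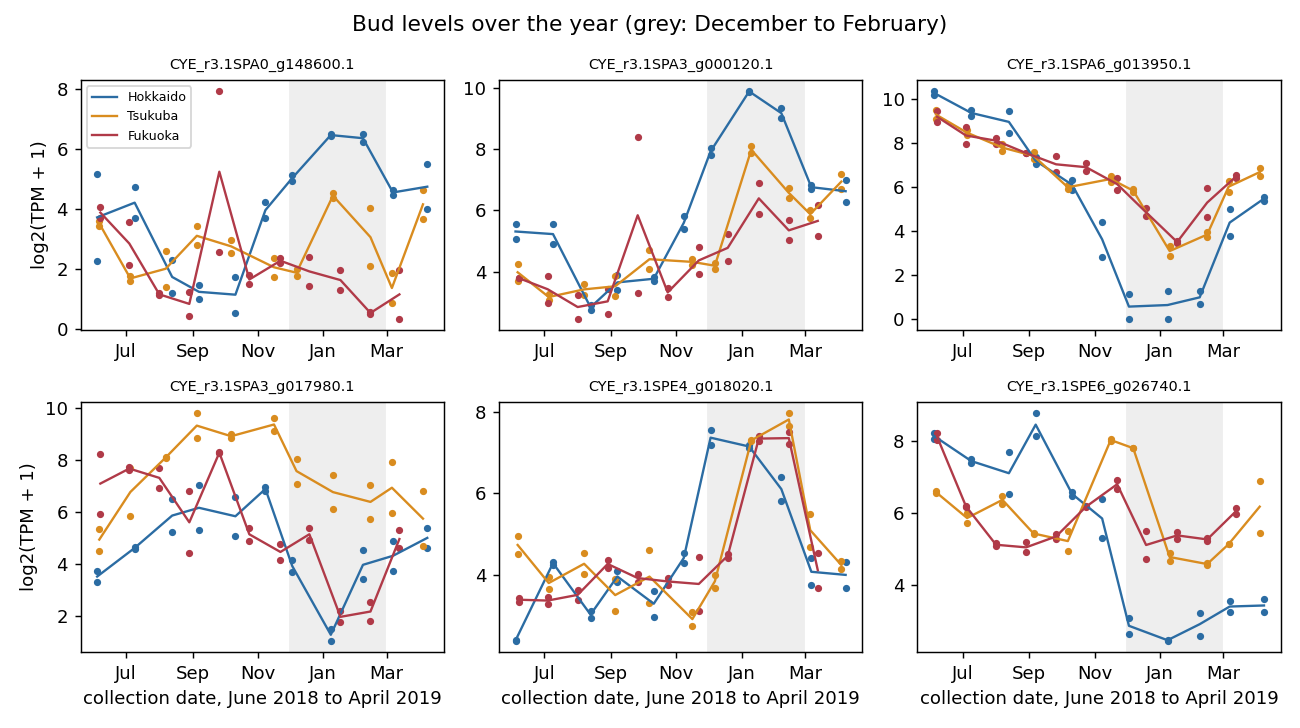
Bud level of 6 genes, log2(TPM + 1) on the vertical axis, against collection date at Hokkaido, Tsukuba and Fukuoka, with a point per tree and a line through the mean of the 2 trees. The grey band is December to February; CYE_r3.1SPE4_g018020.1 is high in Hokkaido in early December while the other sites are still low, and CYE_r3.1SPA6_g013950.1 is near 0 in Hokkaido through the band.

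The winter minus summer change differed between sites in many genes, including genes with no called site difference in winter. The library series changed between the seasons for all trees but the second of Hokkaido and of Tsukuba. That series was not a covariate in these fits. Between Hokkaido and Fukuoka the winter minus summer change differed in 5629 of 39730 genes (14.2%), between Hokkaido and Tsukuba in 3394 (8.54%) and between Tsukuba and Fukuoka in 2336 (5.88%). For Hokkaido and Fukuoka the median over all genes was -0.21, and the direction of the calls turned with the scaling, with 35.3% more positive in Hokkaido as deposited, 55.4% after median scaling and 54.4% after quantile normalization. For Hokkaido and Tsukuba the share was 27.9%, 38.5% and 42.2%. For Tsukuba and Fukuoka the median was -0.15, and 1722 calls (4.33%) were more positive in Tsukuba and 614 (1.55%) in Fukuoka, or 2528 and 2271 by adjusted p alone. In summer itself 2364 genes (6.01%) were called between Hokkaido and Fukuoka, 42.2% of them higher in Hokkaido as deposited and 29.2% after median scaling, with a median over all genes of 0.13 and 68.9% higher by adjusted p alone. Summer calls numbered 2031 (5.16%) between Hokkaido and Tsukuba and 957 (2.43%) between Tsukuba and Fukuoka. Genes called with the same sign in both seasons were 190 for Hokkaido and Fukuoka (8.56% of the winter and 8.04% of the summer calls), 216 for Hokkaido and Tsukuba (13.0% and 10.6%) and 9 for Tsukuba and Fukuoka (1.44% and 0.94%). Calls of opposite sign in the seasons made up 7.20% of the winter calls for Hokkaido and Fukuoka, 6.27% for Hokkaido and Tsukuba and 11.4% for Tsukuba and Fukuoka. Between Tsukuba and Fukuoka the called genes were mostly higher in Tsukuba in winter and mostly lower there in summer, with 205 (0.521%) higher and 752 (1.91%) lower. By adjusted p alone, as deposited, the lower genes were the more numerous in both seasons, with 1135 higher and 1368 lower in summer. The summer count for this pair was 8 without the first and 1596 without the second Tsukuba tree, 11 without the first and 0 without the second Fukuoka tree, and its shared calls then fell to between 0 and 8. Its winter minus summer count was 1278 without the first Tsukuba tree and 1111 without the first Fukuoka tree. Without the first Fukuoka tree, Hokkaido and Fukuoka had 996 summer calls and 95 shared with winter, and without the second Hokkaido tree, Hokkaido and Tsukuba had 119 shared.

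The genes named for their seasonal contrast between Hokkaido and Fukuoka were CYE_r3.1SPE2_g016970.1 (5.44, SE 0.16, adjusted p = 0.000125) and CYE_r3.1SPA6_g013950.1 (-4.81, SE 0.40, adjusted p = 0.000792), both described above, with CYE_r3.1SPA2_g034430.1 and CYE_r3.1SPE0_g145910.1. CYE_r3.1SPA2_g034430.1 was low everywhere in winter, 3.66 to 10.2 TPM in Hokkaido and 4.10 to 26.4 TPM in Fukuoka. Its contrast of 4.52 (SE 0.56, adjusted p = 0.00192) came from summer, with 75.7 ± 83.4 TPM in Hokkaido and 1916 ± 86.6 TPM in Fukuoka (SD, n = 2 trees each). CYE_r3.1SPE0_g145910.1 was listed at 0 in all 6 winter libraries of Hokkaido, against 0 to 43.4 TPM in Tsukuba and 0 to 7.70 TPM in Fukuoka. Its Tsukuba means were 38.2, 0.85 and 0.97 TPM from December to February. In summer the Hokkaido trees had 0.679 to 49.6 TPM, the Tsukuba trees 0 to 0.329 TPM and the Fukuoka trees 0 to 42.9 TPM. The fitted contrasts were -5.14 (SE 0.47, adjusted p = 0.000941) for Hokkaido minus Fukuoka and -6.61 (SE 0.47, adjusted p = 0.00101) for Hokkaido minus Tsukuba. Fitted values of a gene listed at 0 depend on the pseudocount.

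For Hokkaido minus Tsukuba, CYE_r3.1SPA4_g003680.1 had 22.4 to 61.4 TPM in winter and 0.535 to 3.41 TPM in summer in Hokkaido, against 0.912 to 15.9 TPM and 1.03 to 28.3 TPM in Tsukuba (contrast 4.00, SE 0.28, adjusted p = 0.00101). Winter was thus the high season of this gene in Hokkaido and not in Tsukuba. CYE_r3.1SPA1_g035870.1 went the other way, with 0 to 2.83 TPM in winter and 7.02 to 26.9 TPM in summer in Hokkaido. In Tsukuba it had 2.6 to 36.1 TPM in winter and 1.72 to 3.75 TPM in summer (contrast -4.67, SE 0.21, adjusted p = 0.000522). Its high winter level in Tsukuba was that of December alone, with means of 35.1, 2.83 and 3.77 TPM from December to February. CYE_r3.1SPA3_g008020.1 was the other gene named, at 3.22 (SE 0.21, adjusted p = 0.000966). Its Hokkaido minus Tsukuba difference was 0.12 in winter (SE 0.16, adjusted p = 0.587) and -3.11 in summer (SE 0.11, adjusted p = 0.000695). For Tsukuba minus Fukuoka, CYE_r3.1SPE5_g000260.1 averaged 188 ± 9.10 TPM in winter and 48.1 ± 16.1 TPM in summer in Tsukuba, against 57.5 ± 7.48 TPM and 152 ± 31.1 TPM in Fukuoka (SD, n = 2 trees each; contrast 4.56, SE 0.54, adjusted p = 0.00478). By these means the 2 sites had opposite seasons for it. Its Fukuoka trees still had 117 and 106 TPM in December, within their summer range of 57.1 to 265 TPM, and 16.8 and 9.46 TPM in February. CYE_r3.1SPA3_g017980.1 had 4.57 (SE 0.52, adjusted p = 0.00428), CYE_r3.1SPA0_g083470.1 -2.52 (SE 0.31, adjusted p = 0.0051) and CYE_r3.1SPE1_g039050.1 -2.45 (SE 0.25, adjusted p = 0.00356). For CYE_r3.1SPA0_g083470.1, Tsukuba minus Fukuoka was -0.09 in winter (SE 0.14, adjusted p = 0.696) and 2.43 in summer (SE 0.30, adjusted p = 0.021).

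Genes that differed between 2 sites in winter were then followed at the site left out of that comparison. Its libraries did not enter the difference, but its winter libraries shared the fit's estimate of the spread and the filter on mean TPM. Of the genes higher in Hokkaido than in Fukuoka, 74.0% had a higher mean in winter than in summer in Tsukuba, against 30.3% of the genes lower in Hokkaido and 60.6% of all 37281 genes. Of the genes higher in Hokkaido than in Tsukuba, 71.8% were higher in winter than in summer in Fukuoka, against 23.5% of the lower genes and 65.2% of all. Of the genes higher in Tsukuba than in Fukuoka, 56.4% were higher in winter than in summer in Hokkaido, against 37.3% of the 59 lower genes and 55.5% of all. In both Hokkaido comparisons the higher and the lower genes thus parted by season at the third site. For Hokkaido minus Tsukuba the lower genes lay much further from the share of all genes than the higher genes did. For Tsukuba minus Fukuoka the higher genes lay near that share and the 59 lower genes below it. The correlation across genes was 0.28 for Hokkaido minus Fukuoka with the Tsukuba season, 0.29 for Hokkaido minus Tsukuba with the Fukuoka season and 0.05 for Tsukuba minus Fukuoka with the Hokkaido season, as descriptions over genes.

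The step from winter to March at the third site ran the other way. Both steps use the same winter mean of that site, with opposite sign, so part of this turn is built in. A rise was seen in Tsukuba for 38.3% of the genes higher in Hokkaido than in Fukuoka, 73.8% of the lower genes and 64.3% of all, or 30.1%, 64.1% and 43.3% after median scaling. In Fukuoka it was seen for 43.3% of the genes higher in Hokkaido than in Tsukuba, 72.8% of the lower genes and 48% of all. In both Hokkaido comparisons the lower genes thus had a rise into March at the third site more often than all genes, with and without the scaling.

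**Figure D5:**
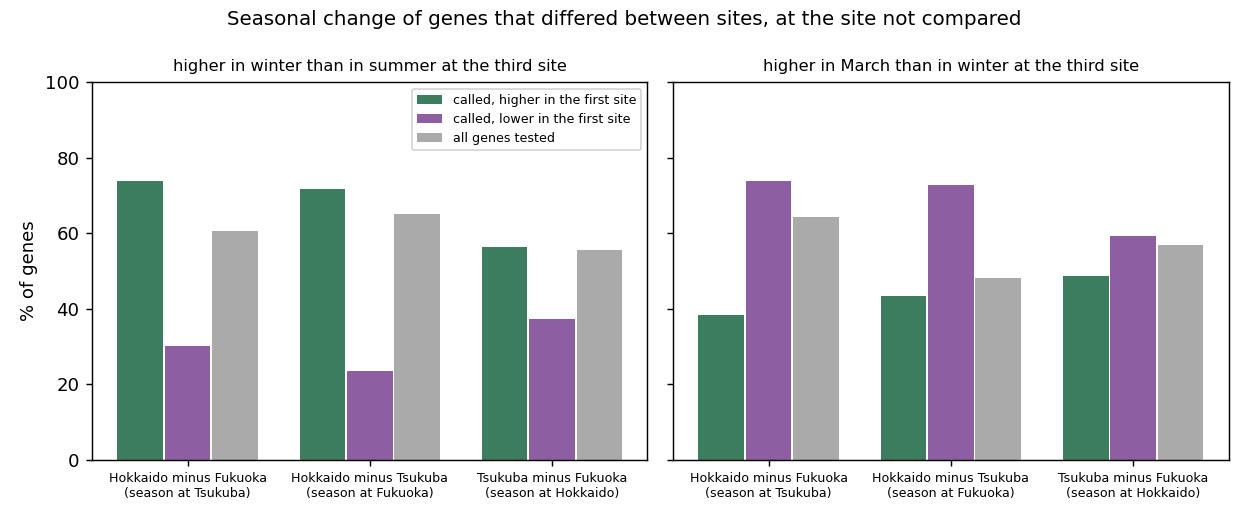
Percentage of genes (vertical axis) with a higher mean in winter than in summer (left) and in March than in winter (right) at the site left out of the comparison, for genes called higher, called lower and all genes tested. For Hokkaido minus Fukuoka the left panel reads 74.0%, 30.3% and 60.6% in Tsukuba, and the right panel turns this order round. Both panels use the same winter mean with opposite sign, so part of the turn is built in.

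Hokkaido buds of early December resembled those of a later date further south. Over 40161 genes, the buds of 3 December in Hokkaido correlated best with those of 10 January among the 11 dates in Tsukuba (r = 0.964), against 0.918 with 7 December, in 4 of 4 pairs of trees. Against Fukuoka they were as near to 17 January (r = 0.953) as to 19 December (r = 0.952), with 17 January nearest in 2 of 4 pairs. Seen from the south, Tsukuba buds of 7 December were nearest to those of 8 November in Hokkaido (r = 0.95), and Fukuoka buds of 19 December too (r = 0.960). The January buds of Tsukuba and of Fukuoka were still nearest to Hokkaido buds of 3 December (r = 0.964 and 0.953, against 0.954 and 0.947 with 8 January). Hokkaido buds of 8 January were nearest to January buds at both other sites, and those of 7 February to 14 February in Tsukuba but to 17 January in Fukuoka (r = 0.942, against 0.939 with 14 February). Tsukuba and Fukuoka were nearest to each other's library of the same month throughout. These correlations are descriptions over genes that share each library, with no test.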

How the data were processed

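RNA was sequenced as paired reads, per the labels' protocols. The authors deposited TPM values for 95076 gene IDs in 90 libraries, with no counts; a second deposited table repeats them for fewer genes and was not used. StringTie (version 1.3.5), STAR (1.5.2) and fastp (0.20.0) appear without a role in the submitters' processing notes. The genome build was not given in the sources used here. TPM keeps no depth, so no counting interval could be given, and the number of trees limits the precision.

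The R package limma (version 3.58.1, R 4.3.3, tables read by data.table version 1.17.8) was run on log2(TPM + 1), with Benjamini-Hochberg adjustment over all genes with a mean of at least 1 TPM in the fitted libraries. Tree means over 3 dates were fitted with 1 mean per site, seasonal contrasts on 1 difference per tree, and single months on 9 site by month means over 18 libraries. The month fits had no term for the tree and treated the 3 libraries of a tree as independent. In the other fits, p-values over 2 trees per site measure only the spread between these trees. Summer is June, July and the first August collection. Named genes were, per comparison, the called genes ranked by their change, the first 2 in each direction, among those with a mean of at least 5 TPM in winter and the same sign in all 4 pairs of trees. Members, lists and tests were chosen with earlier results of these data known. Replicate numbers name different trees at each site. At Hokkaido and Tsukuba the second tree is also the one in the library series whose numbers begin with 82. The fits were checked on simulated data, and plots were drawn with matplotlib 3.10.9. Alternatives covered the pseudocount, the filter, scaling, eBayes options, a block for the replicate number, the library series, a common date, single months left out and each tree left out.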

Additional observations from a re-analysis of the deposited data

Results flagged for a closer look

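No group holds between 4 and 10 trees, so a single tree far from the others could not be tested for. The results below are those in which the effect of a season or of the months differed between 2 sites by limma's test of the difference itself, with 2 trees per site.

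The winter minus summer change differed in 5629 genes between Hokkaido and Fukuoka, in 3394 between Hokkaido and Tsukuba and in 2336 between Tsukuba and Fukuoka. For Hokkaido minus Fukuoka the named values on the log2 scale were 5.44 for CYE_r3.1SPE2_g016970.1, 4.52 for CYE_r3.1SPA2_g034430.1, -5.14 for CYE_r3.1SPE0_g145910.1 and -4.81 for CYE_r3.1SPA6_g013950.1. For Hokkaido minus Tsukuba they were 4.00 for CYE_r3.1SPA4_g003680.1, 3.22 for CYE_r3.1SPA3_g008020.1, -6.61 for CYE_r3.1SPE0_g145910.1 and -4.67 for CYE_r3.1SPA1_g035870.1. For Tsukuba minus Fukuoka they were 4.57 for CYE_r3.1SPA3_g017980.1, 4.56 for CYE_r3.1SPE5_g000260.1, -2.52 for CYE_r3.1SPA0_g083470.1 and -2.45 for CYE_r3.1SPE1_g039050.1.

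The February minus December change differed in 66 genes between Hokkaido and Fukuoka, in 3315 between Hokkaido and Tsukuba and in 264 between Tsukuba and Fukuoka. For Hokkaido minus Fukuoka the named values were 3.35 for CYE_r3.1SPE2_g035260.1, 2.45 for CYE_r3.1SPA4_g023500.1, -4.26 for CYE_r3.1SPA4_g021080.1 and -4.16 for CYE_r3.1SPE4_g018020.1. For Hokkaido minus Tsukuba they were 5.43 for CYE_r3.1SPA0_g175850.1, 5.41 for CYE_r3.1SPA0_g175790.1, -7.67 for CYE_r3.1SPE0_g129510.1 and -5.24 for CYE_r3.1SPE4_g018020.1. For Tsukuba minus Fukuoka they were 3.68 for CYE_r3.1SPE0_g050980.1, 3.12 for CYE_r3.1SPA0_g127650.1, -3.37 for CYE_r3.1SPE6_g026740.1 and -3.28 for CYE_r3.1SPA6_g004710.1.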

How the results depend on the processing

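The named winter genes kept their calls under all 19 alternatives each except CYE_r3.1SPE0_g050980.1, and the named winter minus summer genes under all 13 each. No named gene changed sign under any alternative, whereas the majority direction of some counts turned with the scaling. Every named February minus December call ended under at least 2 alternatives. A pseudocount of 0.1 called 3640 genes for Hokkaido minus Fukuoka, 2664 for Hokkaido minus Tsukuba and 494 for Tsukuba minus Fukuoka in summer; of the genes differing between sites, Fukuoka was then highest in 1927, Hokkaido lowest in 2829 and Tsukuba lowest in 459, and 293 were called alike in both seasons for Hokkaido minus Fukuoka. A mean TPM of at least 5 left 1098 for Hokkaido minus Tsukuba (1339 in summer, 2135 for winter minus summer, 2997 in December), 1549 for Hokkaido minus Fukuoka in December and 2246 in February, with Fukuoka highest in 731 and Hokkaido lowest in 1158. With at least 5 TPM required in all 6 libraries of another site, 0 genes were at 0 in all 6 libraries of Hokkaido. With no filter, Tsukuba minus Fukuoka had 0 calls in summer, 1206 for winter minus summer and 0 shared by the seasons, and Hokkaido minus Tsukuba 139 shared; median scaling left 5 shared for Tsukuba minus Fukuoka. Tsukuba was lowest in 365 genes over January and February, 394 without January and 426 without February.

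The February minus December counts moved most. For Hokkaido minus Fukuoka they were 8 with a pseudocount of 0.1, 392 with a mean TPM of at least 5, 0 with no filter, 4 after quantile normalization, 18 after median scaling, 5 with eBayes trend and robust and 799 from the 18 libraries. For Tsukuba minus Fukuoka they were 2, 870, 0, 648, 172, 0 and 1417 under the same settings. With the replicate number as a block both were 0, while winter counts were 2219 for Hokkaido minus Fukuoka, 1662 for Hokkaido minus Tsukuba and 611 for Tsukuba minus Fukuoka. The deviations of same-numbered trees correlated across genes with r of -0.12 for Hokkaido and Fukuoka and -0.06 for Tsukuba and Fukuoka. For Hokkaido and Tsukuba, where the number also follows the library series, r was 0.18.

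Leaving out 1 tree at a time gave 364 to 639 genes for Tsukuba minus Fukuoka in winter, 996 to 2426 for Hokkaido minus Fukuoka and 0 to 1596 for Tsukuba minus Fukuoka in summer, and 1111 to 2592 for the winter minus summer change of Tsukuba minus Fukuoka. For February minus December it gave 0 to 1 for Hokkaido minus Fukuoka, 0 to 2273 for Hokkaido minus Tsukuba and 0 for Tsukuba minus Fukuoka. Within months it gave 1311 to 3841 for Hokkaido minus Fukuoka in December, 552 to 970 for Tsukuba minus Fukuoka in January, and in February 1384 to 2685 for Hokkaido minus Tsukuba and 499 to 1052 for Tsukuba minus Fukuoka. Fukuoka was highest in 842 to 1748 genes, and calls shared by the seasons numbered 95 to 221 for Hokkaido minus Fukuoka, 119 to 213 for Hokkaido minus Tsukuba and 0 to 8 for Tsukuba minus Fukuoka. The cause of these shifts was not tested.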

Other observations

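Genes called between sites in winter were rarer in leaves than the average gene. A mean of at least 1 TPM in the 24 leaf libraries was reached by 74.6% of the genes higher in Hokkaido than in Fukuoka, by 76.7% of the genes lower there and by 85.3% of all genes tested. The median winter level was 12.1 TPM for the higher genes, 7.60 TPM for the lower genes and 9.27 TPM for all. The share called for Hokkaido minus Fukuoka was 5.66% among IDs with SPA and 6.05% among IDs with SPE, letters that the sources used here do not explain.

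One autumn library stood apart in the genes that were higher in Hokkaido in winter, a pattern chosen after its values were seen. On 26 September in Fukuoka, the first tree had 244 TPM of CYE_r3.1SPA0_g148600.1 and the second 4.87 TPM, and for CYE_r3.1SPA3_g000120.1 the trees had 334 and 8.80 TPM. The first tree was at least 4-fold above the second in 86 of the 829 genes higher in Hokkaido than in Fukuoka in winter (10.4%), in 34 of the 1392 lower genes (2.44%) and in 386 of all 37986 genes (1.02%). Over the other 32 collections the share among the higher genes was at most 3.38%. That library entered no comparison of winter or summer buds, and what sets it apart was not tested.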
